A study of Mus musculus with 4 samples.

Results

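Mesothelin, the B3GNT glycosyltransferases and the membrane mucins were examined in keratinocytes (KCs), the main cells of the epidermis. The 9 genes were Msln, B3gnt3, B3gnt2, B3gnt5, B3gnt7, Muc1, Muc4, Muc15 and Muc20, taken by symbol from the 25814 genes listed in each library. Msln and B3gnt3 were selected on their difference between the genotypes in these same libraries, so their values are given as a description and were not tested. The other 7 genes were followed to see whether further genes of glandular cell surfaces moved as well. The libraries were made from poly(A) RNA of untreated primary KCs of adult 129/sv mouse tails, grown in serum-free medium with 0.06 mM Ca++. There were 2 wild-type (WT) libraries and 2 libraries labelled Nfat5-Knockout, called Nfat5-/- here, which the series describes as separate experiments for each genotype. Per the study's methods the WT mice were littermates, the tails were shipped overnight on ice, and kidney atrophy and raised blood sodium are described for the 129/sv mice, without naming a genotype. The Nfat5-/- genotype, which affects a transcription factor of the response to osmotic stress, is that of the whole animal and not of KCs alone, so effects within KCs and effects from the rest of the animal cannot be told apart.

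Mesothelin is a glycoprotein anchored to the cell membrane by a lipid. It is made as a precursor that the protease furin cuts, is known from mesothelial cells and from many adenocarcinomas, and binds the mucin MUC16. Membrane mucins are large proteins that carry dense O-linked sugar chains on the apical side of glandular and other wet epithelia. The B3GNT enzymes add N-acetylglucosamine to galactose in these and other chains: B3GNT3 extends core 1 O-glycans, B3GNT2 is the main enzyme of long poly-N-acetyllactosamine chains, B3GNT5 starts the lacto-series glycolipids and B3GNT7 acts in keratan sulfate chains.

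The libraries held 16219445 to 23494436 gene reads, and the floor set by 3 reads was 0.127 to 0.184 CPM (counts scaled to library size), for counting error only. KC markers were high in all libraries, with a summed level of 11064 to 12871 RPKM (reads scaled to exon length and mapped reads). Reads of the Nfat5 gene itself did not separate the labels (408 and 929 in WT, 715 and 770 in Nfat5-/-), and since they do not show which exons were read, each direction rests on the labels. Differences were tested with edgeR over 12614 genes, of which 160, or 1.27%, had an adjusted p under 0.05 (called below), with 119, or 0.943%, called higher in Nfat5-/-. At an unadjusted p under 0.05 there were 14.6%. Without any test, the 2 groups did not overlap in CPM in 23.3% of genes on the higher side and in 24.5% on the lower side. The P-values measure the spread between these libraries only.

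The promoter sequences of B3gnt3 and B3gnt2 are shown to set the selected enzyme beside the relative with the most reads. They are the 250 bases before the RefSeq start site (GRCm38.p6), read 5′ to 3′ on the gene's minus strand, chr8:71701801-71702050 for B3gnt3 and chr11:22859736-22859985 for B3gnt2. Capitals mark GGAAA, the core bound by NFAT family factors, or its complement TTTCC.
B3gnt3: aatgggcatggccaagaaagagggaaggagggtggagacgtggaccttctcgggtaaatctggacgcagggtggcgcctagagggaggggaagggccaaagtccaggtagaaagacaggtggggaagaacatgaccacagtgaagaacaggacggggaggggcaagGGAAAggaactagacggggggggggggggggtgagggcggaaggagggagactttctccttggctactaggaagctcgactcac
B3gnt2: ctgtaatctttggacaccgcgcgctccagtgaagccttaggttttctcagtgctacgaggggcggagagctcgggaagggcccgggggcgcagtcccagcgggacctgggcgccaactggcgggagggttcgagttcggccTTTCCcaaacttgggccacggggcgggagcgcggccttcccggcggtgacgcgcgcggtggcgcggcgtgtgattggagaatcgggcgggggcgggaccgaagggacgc
In B3gnt3 the match began 84 bases before the start on the gene's own strand, and in B3gnt2 it began 109 bases before the start on the opposite strand. Searched on both strands, GGAAA was present in all 7 windows that could be matched among the 9 genes and in 55.6% of 32851 mouse windows of this length. The longer TonE motif, the element of NFAT5, was found in 4.31% of the windows and in 0 of these 7. A match is a string of letters and no binding was measured.

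Msln was clearly transcribed in both genotypes and was several-fold more abundant in Nfat5-/- KCs. Msln (ENSMUSG00000063011) lies on the minus strand of chromosome 17, 25748614 to 25754327 on GRCm38, with 16 exons. Its level was 4.24 and 6.43 RPKM in WT replicates 1 and 2 and 35.6 and 39.4 RPKM in Nfat5-/- replicates 1 and 2. The groups were far apart, and each group varied little within itself compared with the distance between them. The means were 5.33 ± 1.55 RPKM in WT against 37.5 ± 2.65 RPKM in Nfat5-/- (SD, n = 2 each), a ratio of 7.03. The values rest on 152 and 303 gene reads in WT and 1829 and 1603 in Nfat5-/-. By RPKM, Msln ranked 7373 and 6165 among the tested genes in WT and 1769 and 1551 in Nfat5-/-, and so moved from the middle to the upper part of the expressed genes. The edgeR log2 fold change was 2.82 (SE 0.19).

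B3gnt3, the enzyme that extends core 1 O-glycans, was the other gene selected on its difference. B3gnt3 (ENSMUSG00000031803) lies on the minus strand of chromosome 8, 71690756 to 71701789, with 3 exons. It stood at 1.56 and 1.39 RPKM in WT against 8.96 and 9.62 RPKM in Nfat5-/-, from 79 and 96 reads against 662 and 564. The replicates of each genotype were nearly equal. The means were 1.47 ± 0.117 and 9.29 ± 0.469 RPKM (SD, n = 2 each), a ratio of 6.31, and the edgeR log2 fold change was 2.67 (SE 0.15). Since these are bulk cultures, a larger share of cells with the RNA and more RNA per cell cannot be told apart.

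**Figure D1:**
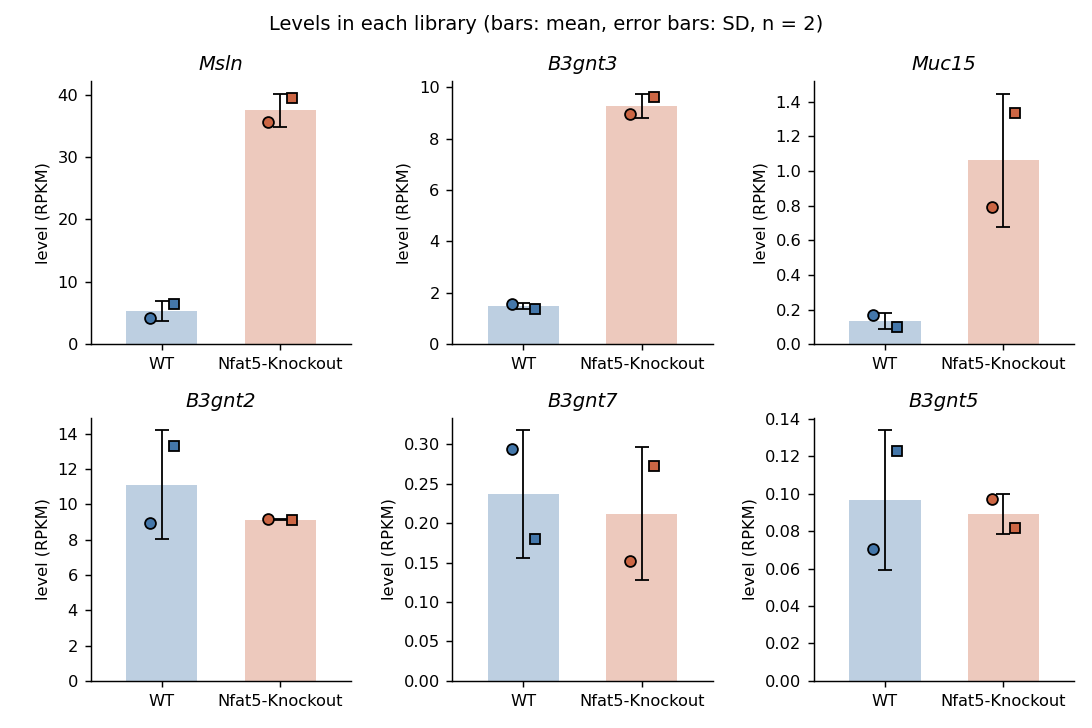
RNA level in RPKM (vertical axes, each from 0 on a scale of its own) of 6 of the genes in the WT and Nfat5-Knockout libraries; circles are replicate 1, squares replicate 2, bars the mean and error bars the SD (n = 2). Msln, B3gnt3 and Muc15 were higher in both Nfat5-Knockout libraries than in either WT library, whereas B3gnt2, B3gnt7 and B3gnt5 overlapped.

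The share of spliced reads in Msln was alike in both genotypes. Reads across exon junctions made up 40.3% and 40.2% of the exon reads in WT and 41.0% and 40.1% in Nfat5-/-. The exact 95% binomial intervals of all 4 libraries overlapped. B3gnt3, with its 3 exons, had fewer such reads: 2 of 79 and 2 of 94 exon reads in WT, and 40 of 659 and 40 of 561 in Nfat5-/-. The shares were 2.31% in the pooled WT reads (exact 95% interval 0.634% to 5.81%) and 6.56% in the pooled Nfat5-/- reads (5.23% to 8.10%). The intervals overlap, and 4 spliced reads in WT do not allow a finer statement.

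**Figure D2:**
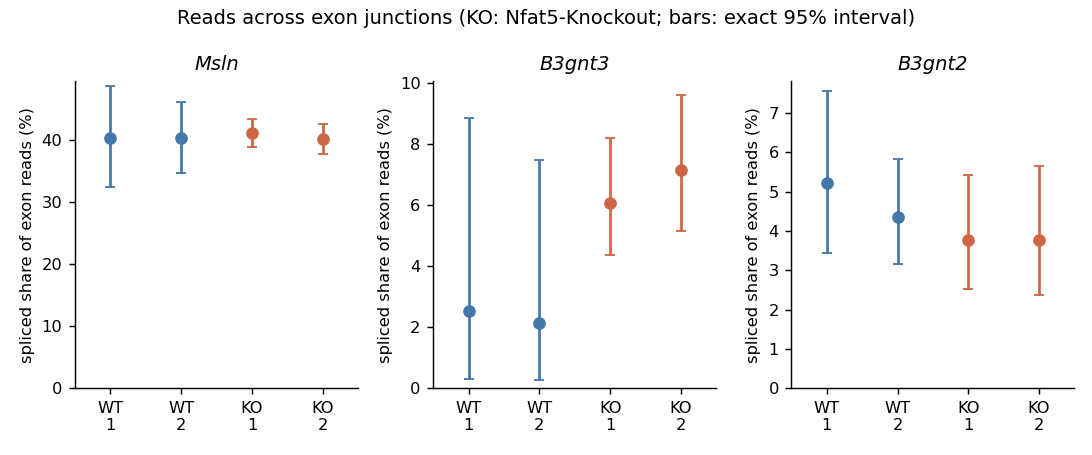
Reads across exon junctions as a percentage of exon reads (vertical axes from 0) in each library for Msln, B3gnt3 and B3gnt2; points are the shares and bars the exact 95% binomial intervals, which cover counting error only. The share of Msln lies near 40% in all 4 libraries, and the intervals of the genotypes overlap in all 3 genes.

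Of the tested genes next to Msln and B3gnt3, 0 were called. Within 100 kb of Msln, 18 genes were listed and 16 tested, with log2 fold changes from -0.87 to 0.37. By edgeR 5 of them had an unadjusted p under 0.05, where the share over all genes was 14.6%, and DESeq2 called 0. The nearest was Mslnl, the mesothelin-like paralogue, whose end lies 283 bases from that of Msln. Mslnl stood at 1.79 and 1.62 RPKM in WT against 1.68 and 1.97 RPKM in Nfat5-/-, so the groups overlapped (log2 fold change 0.11, SE 0.22, edgeR adjusted p 0.863). Of 7 genes within 100 kb of B3gnt3, 5 were tested, with log2 fold changes from -0.74 to 0.22, and 0 had an unadjusted p under 0.05 by edgeR or were called by DESeq2. Jak3, a kinase of cytokine signalling 180 bases away, measured 0.06 on the log2 fold scale (SE 0.23, edgeR adjusted p 0.930).

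**Figure D3:**
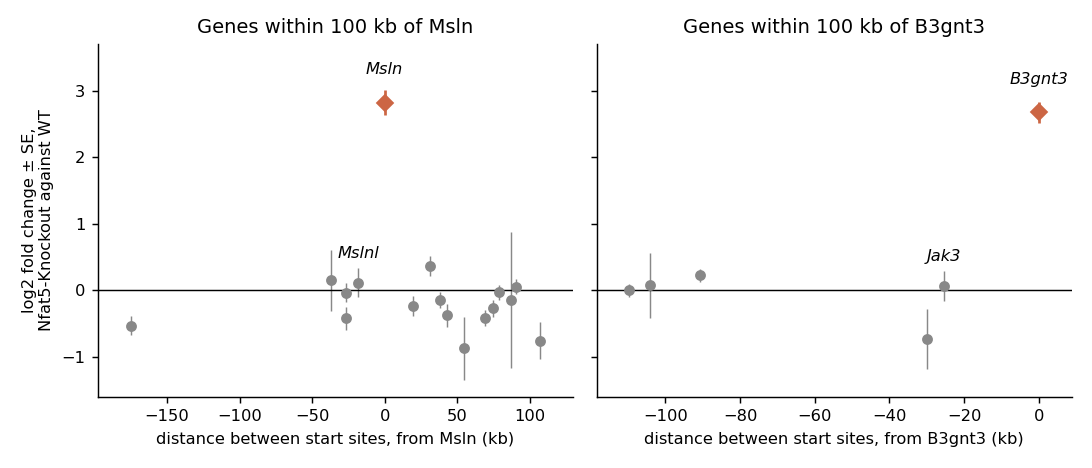
Log2 fold change (Nfat5-Knockout against WT, edgeR, bars are SE) of the tested genes whose bodies lie within 100 kb of Msln (left) or B3gnt3 (right), by the distance between start sites in kb. Msln (2.82) and B3gnt3 (2.67), drawn as diamonds, stand above neighbours that range from -0.87 to 0.37.

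The 3 other B3GNT enzymes gave no call. B3gnt2 (ENSMUSG00000051650, chromosome 11, 22834747 to 22860961) stood at 8.94 and 13.3 RPKM in WT against 9.17 and 9.10 RPKM in Nfat5-/-. WT replicate 2 alone was high, and the other 3 libraries were alike. The log2 fold change was -0.26 (SE 0.18, edgeR adjusted p 0.575), and it was 0.06 without WT replicate 2. Only 3.99% of its exon reads were placed at a single site, because the read-through gene Gm28048 covers the same exons. These were 25 and 40 reads in WT and 25 and 22 in Nfat5-/-. With such reads alone the log2 fold change was -0.59 (edgeR adjusted p 0.439). With the reads of both genes summed, a choice made after the data were seen, the level was 91.8 and 86.0 CPM in WT and 75.6 and 68.4 CPM in Nfat5-/-. Summed, the groups no longer overlapped, and the log2 fold change of -0.30 (SE 0.11) was not called (edgeR adjusted p 0.262).

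B3gnt7 (ENSMUSG00000079445, chromosome 1, 86302832 to 86307305), the enzyme of keratan sulfate chains, was low. It had 16 and 14 reads in WT and 12 and 17 in Nfat5-/-, at 0.294 and 0.179 against 0.152 and 0.272 RPKM. The groups were interleaved (log2 fold change -0.18, SE 0.48, edgeR adjusted p 0.904), and the sign turned without WT replicate 1 (0.14) or without Nfat5-/- replicate 1 (0.21). B3gnt5 (ENSMUSG00000022686, chromosome 16, 19760208 to 19772753), which starts the lacto-series glycolipids, was lower still, with 6 and 14 reads in WT and 12 and 8 in Nfat5-/-. Its log2 fold change was -0.12 (SE 0.50, edgeR adjusted p 0.941), an error that leaves moderate changes undetectable at this depth.

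In WT the order of the 4 enzymes by RPKM was therefore B3gnt2 (mean 11.1), B3gnt3 (1.47), B3gnt7 (0.236) and B3gnt5 (0.0966). B3gnt7 and B3gnt5 had replicate ranges that did not overlap, though they rest on 6 to 16 reads each. In Nfat5-/- KCs B3gnt3 (8.96 and 9.62 RPKM) stood beside B3gnt2 (9.17 and 9.10 RPKM) and their ranges overlapped, with the uncertain placement of the B3gnt2 reads applying here too.

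Among the mucins, Muc15 was higher in Nfat5-/- and the other 3 were at or near 0. Muc15 (ENSMUSG00000050808, plus strand of chromosome 2, 110721340 to 110739527) encodes a membrane mucin first known from milk fat globules. It had 11 and 8 reads in WT and 68 and 91 in Nfat5-/-, at 0.169 and 0.101 against 0.791 and 1.34 RPKM. The groups did not overlap, but all 4 values were low. The log2 fold change was 2.93 (SE 0.45, edgeR adjusted p 0.0351). Muc15 was the 1 gene called among the 4 tested of the 7 not selected on their difference, where 1.27% of all genes were called. It passed the filter on low counts only through the Nfat5-/- libraries, in which it is high, so nothing is read from this count. With 2 Nfat5-/- libraries the call rests on both: the adjusted p was 0.0876 without replicate 1 and 0.239 without replicate 2, with log2 fold changes of 3.28 and 2.49. Muc15 did not enter the test when at least 10 reads in every library, or reads placed at 1 site, were required.

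The Muc15 reads are also uncertain in their place. Muc15 lies inside Ano3, which runs on the opposite strand (chromosome 2, 110655201 to 110950923) and encodes a membrane protein of the anoctamin family. Only 5.08% of the exon reads of Muc15 were unique to it, and these were 0 and 0 reads in WT and 2 and 7 in Nfat5-/-. The reads across exon junctions of Muc15 were also 0 and 0 in WT and 2 and 7 in Nfat5-/-. Ano3 had 3 and 7 reads in WT and 41 and 38 in Nfat5-/-, of which 0, 0, 9 and 9 crossed exon junctions. In WT these are 0 of 18 exon reads of Muc15 (exact 95% interval up to 18.5%) and 0 of 7 of Ano3 (up to 41.0%), against 5.66% and 26.1% of the exon reads in Nfat5-/-, so a difference in the spliced share was not detectable. Ano3 was called (log2 fold change 2.84, SE 0.45, edgeR adjusted p 0.0362), but not without WT replicate 1 (adjusted p 0.0577), Nfat5-/- replicate 1 (0.137) or Nfat5-/- replicate 2 (0.291), nor with exon reads alone (0.05004). Ano3 too passed the filter on low counts only through the Nfat5-/- libraries. With the reads of Muc15 and Ano3 summed, again a choice made after the data were seen, there were 14 and 15 reads in WT and 109 and 129 in Nfat5-/- (log2 fold change 2.91, SE 0.34, edgeR adjusted p 0.0194).

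Muc1, the membrane mucin of most simple epithelia, had 2 and 1 reads in WT and 0 in both Nfat5-/- libraries. Muc4, a mucin that binds the receptor ErbB2, had 0 reads in all 4 libraries. Muc20 had 1 read, in an intron, in Nfat5-/- replicate 1. These 3 genes were not tested, and their levels lie at or under the floor of 0.127 to 0.184 CPM in every library, so a difference was not detectable.

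The genes most like Msln and B3gnt3 were named by the distance between centred log2 CPM values over the 4 libraries. Genes this close had to differ between the groups as well, so their fold changes are a description. Nearest to Msln were Ano3, Sorbs2, Gc, Sncg and Ephx3, at distances from 0.316 to 0.473. Nearest to B3gnt3 were Rhov, Zdbf2, Sncg, Dsg1b and Tgm3, at distances from 0.199 to 0.401. Sncg, the gene of gamma-synuclein, was near both and was the most abundant of them, with 10.3 and 12.6 RPKM in WT against 56.1 and 71.3 RPKM in Nfat5-/-. Dsg1b, a desmosomal cadherin, and Tgm3, a transglutaminase of the cornified layer, belong to differentiating KCs. Dsg1b stood at 0.501 and 0.501 RPKM in WT against 2.27 and 3.07 RPKM in Nfat5-/-, and Tgm3 0.146 and 0.120 against 0.693 and 0.811 RPKM. Of the exon reads of Dsg1b, 61.6% were unique.

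To see how far other genes of the same biology moved, 9 lists were drawn from general knowledge, with 132 genes of which 89 were tested. Of these, 2 were called higher and 0 lower, where 0.943% of all genes were called higher. Their groups were apart on the higher side in 29 genes (23.3% of all genes) and on the lower side in 19 (24.5% of all genes), and their median log2 fold change was 0.01, against -0.01 over all genes tested. At an unadjusted p under 0.05 there were 22 of the 89, where the share over all genes was 14.6%, and DESeq2 called 6 of them among 427 calls in all.

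Mesothelin partners and processing enzymes gave 0 calls by edgeR or DESeq2 in 7 tested genes, of which 1 had an unadjusted p under 0.05 (median log2 fold change 0.09). Furin, the protease that cuts the mesothelin precursor, stood at 36.7 and 42.9 RPKM in WT against 36.3 and 45.0 RPKM in Nfat5-/-. Mmp14, a membrane-bound matrix protease, stood at 35.0 and 36.7 RPKM in WT against 38.1 and 44.2 RPKM in Nfat5-/-. Muc16, the mucin that binds mesothelin, was low throughout, at 0.315 and 0.262 RPKM in WT against 0.173 and 0.288 RPKM in Nfat5-/- (log2 fold change -0.32, SE 0.26, edgeR adjusted p 0.626). The high Msln level of Nfat5-/- KCs was therefore not accompanied by a detectable rise of Muc16 RNA.

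Of 13 other genes listed under mucins, 4 were tested and 1 was called, where 1.27% of all genes were called. The 4 were Muc16, Cd164, Podxl and the called gene Mcam, which is named as a mucin but belongs to another protein family. Mcam, also named MUC18, an adhesion protein of the immunoglobulin family that is also made by smooth muscle and endothelial cells, rose from 1.99 and 2.27 RPKM to 7.08 and 11.8 RPKM (log2 fold change 2.15, SE 0.26, edgeR adjusted p 0.0203). Its call was lost without Nfat5-/- replicate 2 (log2 fold change 1.72, adjusted p 0.0618). Cd164, a sialomucin, was abundant at 58.1 and 63.3 RPKM in WT against 57.9 and 59.1 RPKM in Nfat5-/-. Muc2, Muc5ac, Muc5b and Muc6, secreted mucins that form gels, did not pass the filter on low counts.

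In the lists of sugar chain enzymes and galectins edgeR called 0 genes at the settings used here. DESeq2 called 1, the glycolipid enzyme Ugcg, named after its values were seen, which was also called by edgeR under several other settings. Without a filter on low counts edgeR called B4galt5, Fut2, Fut9, Lgals1 and Lgals3bp as well. At an unadjusted p under 0.05 there were 0 of the other B3GNT genes, 3 of the chain extension genes, 1 of the O-glycan genes, 2 of the caps, 2 of the glycolipid genes and 2 of the galectins, against 14.6% over all genes tested. The other B3GNT and related glycosyltransferase genes had log2 fold changes below 0 in all 6 tested genes, from -0.92 to -0.09 (median -0.25). The most abundant of them, B4gat1, an enzyme of dystroglycan chains, stood at 19.3 and 14.9 RPKM in WT against 15.5 and 15.1 RPKM in Nfat5-/-. Rfng, which modifies Notch receptors, measured 6.45 and 7.16 against 6.45 and 6.26 RPKM. The log2 fold changes of B4gat1 (-0.13, SE 0.15) and Rfng (-0.09, SE 0.15) lay within 1 SE of 0. None of the 6 genes was called, and over all 12614 tested genes 6061 had values above 0.

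The galactosyltransferases, branching enzymes and sulfotransferases that act with B3GNTs had a median log2 fold change of 0.01 over 11 tested genes. B4galt1, the main galactosyltransferase of these chains, stood at 44.8 and 48.8 RPKM in WT against 38.4 and 38.2 RPKM in Nfat5-/- (log2 fold change -0.27, SE 0.10, edgeR adjusted p 0.287). B4galt5, named after its values were seen, was on the other side, at 1.0 and 0.976 against 2.11 and 1.66 RPKM (log2 fold change 0.89, SE 0.20, edgeR adjusted p 0.101). B4galt3 measured 19.8 and 22.3 against 20.5 and 18.8 RPKM. The 16 tested enzymes of mucin-type O-glycans had log2 fold changes from -0.44 to 0.45. Galnt3 and Galnt1, which place the first sugar, measured 33.3 and 34.5 against 31.2 and 29.4 RPKM and 22.1 and 22.5 against 19.4 and 20.3 RPKM.

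Among 16 tested sialyl- and fucosyltransferases the median log2 fold change was -0.09. St3gal2 stood at 33.9 and 34.9 RPKM in WT against 31.8 and 34.4 RPKM in Nfat5-/-, and St3gal4 9.01 and 11.9 against 12.2 and 12.4 RPKM. The largest log2 fold changes, in genes named after their values were seen, were those of Fut2 and Fut9, which rest on few reads. Fut2 had 2 and 0 reads in WT and 14 and 10 in Nfat5-/- (log2 fold change 3.28, SE 0.91, edgeR adjusted p 0.161), and its log2 fold change was 6.62 without WT replicate 1 and 2.16 without WT replicate 2. Fut9 had 4 and 6 reads in WT and 26 and 25 in Nfat5-/- (log2 fold change 2.20, SE 0.46, edgeR adjusted p 0.0772). Both passed the filter on low counts only through the Nfat5-/- libraries. In both the groups did not overlap, and without that filter both were called. The 7 tested glycolipid genes had a median of 0.09, and B4galnt1, an enzyme of complex gangliosides, overlapped between the genotypes (40.2 and 47.4 against 44.5 and 47.2 RPKM).

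The 7 tested galectin genes, for lectins that bind N-acetyllactosamine chains, had a median log2 fold change of -0.16. Lgals1 was the most abundant, at 410 and 710 RPKM in WT against 910 and 944 RPKM in Nfat5-/- (log2 fold change 0.75, SE 0.23, edgeR adjusted p 0.201). WT replicate 1 stood lowest in Lgals1. Lgals3 overlapped, at 165 and 117 against 126 and 152 RPKM. Lgals3bp, a glycoprotein ligand of galectin-3, stood at 0.973 and 1.38 RPKM in WT against 0.458 and 0.732 RPKM in Nfat5-/- (log2 fold change -1.02, SE 0.34, edgeR adjusted p 0.247).

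Other surface and apical genes of glandular epithelia gave 1 call, where 1.27% of all genes were called. Of 28 genes, 16 were tested, with a median log2 fold change of 0.31, 11 values above 0, and groups apart on the higher side in 8 genes and on the lower side in 2, where the shares over all genes were 23.3% and 24.5%. An unadjusted p under 0.05 was reached by 9, against 14.6% over all genes, in both directions together. Upk1b, which is among these 9 and among the 8, passed the filter on low counts only through the Nfat5-/- libraries. DESeq2 called 4: Mal2, Ezr, Lypd3 and Wfdc2, the last 3 named after their values were seen. The gene called by edgeR, Mal2, a protein of apical transport, rose from 4.71 and 4.52 RPKM to 8.02 and 7.39 RPKM (log2 fold change 0.76, SE 0.13, edgeR adjusted p 0.0463). Without any 1 of the 4 libraries Mal2 was no longer called, with adjusted p-values from 0.0555 to 0.234. The 2 most abundant, Ly6e (626 and 647 against 579 and 623 RPKM) and Epcam (307 and 379 against 348 and 300 RPKM), each had a log2 fold change of -0.06.

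**Figure D4:**
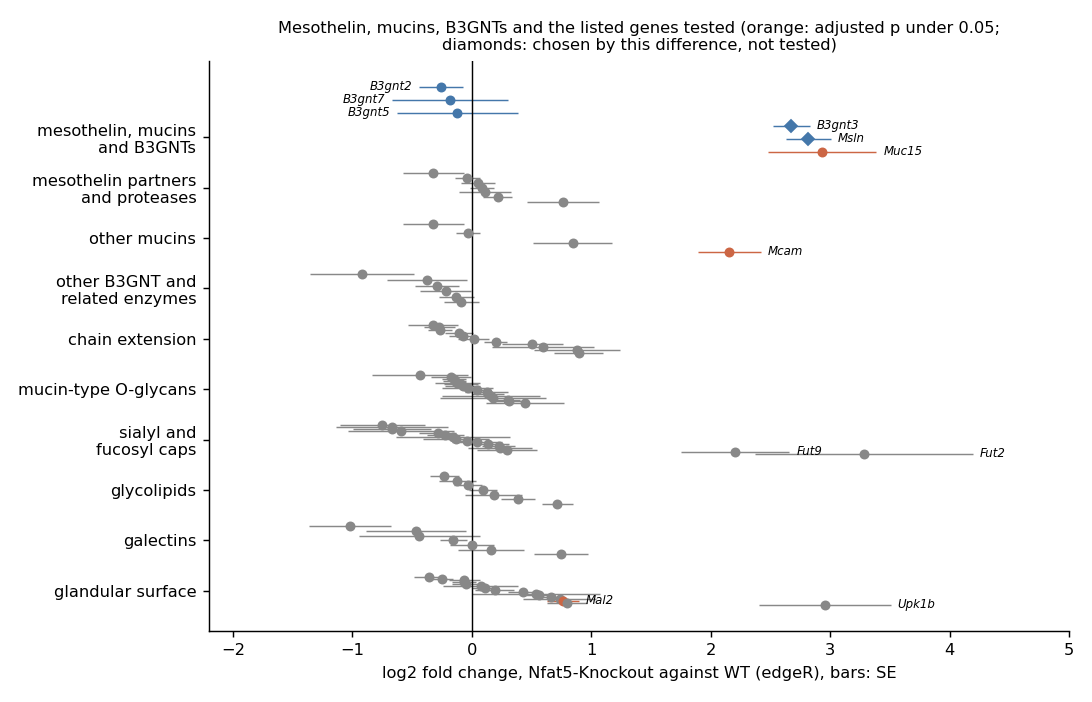
Log2 fold change (Nfat5-Knockout against WT, edgeR) with its SE for the tested genes of the mesothelin, mucin and B3GNT set (top row) and of the 9 lists, 1 point a gene. Orange points had an adjusted p under 0.05 (Muc15, Mcam and Mal2), diamonds mark Msln and B3gnt3, which were selected on this difference, and most points lie between -1 and 1.

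Markers of other cells moved between the genotypes as well. The defining mesothelial markers Wt1, Lrrn4 and Upk3b had 0 reads in all 4 libraries, and the summed mesothelial level (16.4 and 18.6 RPKM in WT, 14.5 and 11.5 RPKM in Nfat5-/-) was almost wholly that of Bnc1, which KCs also make. Of the gland list, 4 of 9 genes were tested and 3 called higher, where 0.943% of all genes were. These 3 were the simple epithelial keratins Krt7, Krt8 and Krt18. The summed level of the list, 408 and 673 RPKM in WT against 1494 and 1680 RPKM in Nfat5-/-, was mostly Krt8 and Krt18. In WT Krt8 and Krt18 averaged 314 and 206 RPKM, and 50.6% of the Krt8 exon reads were unique. Sox10, not tested, went the other way, with 10 and 9 reads in WT against 1 and 3 in Nfat5-/-. Foxi1 had 0 reads throughout, and Aqp5 and Scgb3a1 stayed under 5 reads in every library. Of the smooth muscle list, all 4 tested of 5 genes were called higher, where 0.943% of all genes were. The summed level was 184 and 151 RPKM in WT against 518 and 819 RPKM in Nfat5-/-, almost wholly Acta2 and Tagln. Myh11, with 1 and 1 reads in WT against 22 and 40 in Nfat5-/-, passed the filter on low counts only through the Nfat5-/- libraries. Nothing is therefore read from this count, and Des had 1 read in all. Of 4 tested melanocyte genes 1 was called lower, where 1.27% of all genes were called in either direction. The summed level of that list was 7.29 and 6.99 against 2.04 and 2.89 RPKM. The sebocyte list gave 0 calls in 4 tested genes (summed 113 and 97.6 against 149.7 and 142 RPKM). Summed fibroblast, endothelial and immune markers stayed under 1.2 RPKM in every library. These lists gave 0 calls in 2, 2 and 0 tested genes, too few to show whether they shifted. The part of these shifts in the levels of Msln, B3gnt3, Muc15 and Mcam was not tested.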

How the data were processed

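RNA from 4 KC libraries (2 WT, 2 Nfat5-Knockout) was analysed from tables that the authors made with the CLC Genomics Workbench on GRCm38. The deposited values were read counts per gene, not normalized, and RPKM per exon length and mapped reads, made by the authors and written with decimal commas. Reads fitting several sites were shared out and no use of strand is stated, so overlapping genes are uncertain. Groups and replicate numbers came from the sample titles.

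Total gene reads were tested with edgeR 4.0.16 (R 4.3.3): filterByExpr, TMM factors (0.980 to 1.01), quasi-likelihood F test with genotype as the sole term, two-sided, Benjamini-Hochberg adjustment over 12614 genes, threshold 0.05. SE is the log2 fold change over the square root of F. Replicates differed by more than sampling noise (chi-square per degree of freedom 16.7 and 17.3 over genes). The procedure was tested on simulated data. Alternatives were other scaling, filters and read types, a replicate block, each library left out, DESeq2 1.42.0 and limma 3.58.1 on log2 RPKM. Binomial intervals (Clopper-Pearson) and floors cover counting error only.

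The genes and lists were chosen with earlier results of these data known. Named are the 9 genes; listed genes with an adjusted p under 0.05, or with an absolute log2 fold change of at least 1 and a group mean of at least 1 RPKM; the 2 most abundant of each list; and the 5 patterns nearest to Msln and to B3gnt3 (log2 CPM, prior count 2). Others were chosen after their values were seen. For 1 gene that this rule names the values are not reported here. Of 132 listed genes 4 were not analysed here. Of the 9 promoters 7 were matched in RefSeq. Msln and Muc15 were not analysed there.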

Additional observations from a re-analysis of the deposited data

Results flagged for a closer look

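Intron reads were not part of the comparisons of levels. In Msln they averaged 0.652 CPM in Nfat5-/- against 0.138 CPM in WT, from 14 and 13 reads against 3 and 2. This was above the level of the control libraries, which is why it is listed here. The single values were 0.184 and 0.0918 CPM in WT and 0.593 and 0.712 CPM in Nfat5-/-. B3gnt3 had 0 and 2 intron reads in WT and 3 in each Nfat5-/- library, too few to compare.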

How the results depend on the processing

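Msln and B3gnt3 stayed higher in Nfat5-/- under every alternative run. On log2(RPKM + 1) their log2 fold changes were 2.62 and 2.06, and that of Msln ranged from 2.58 to 3.15 with 1 library left out. With 1 library left out B3gnt2 ranged from -0.50 to 0.0585, changing sign without WT replicate 2, B3gnt7 from -0.65 to 0.21, changing sign without WT replicate 1 (0.14) or Nfat5-/- replicate 1 (0.21), and Muc15 from 2.49 to 3.39. The replicate numbers did not pair the libraries (correlation of deviations -0.0652). With a replicate block Muc15 had a log2 fold change of 2.91 and an adjusted p of 0.0564, so that 0 of the 7 genes and 1 listed gene were called, of 132 calls in all, 109 of them shared with the 160. The block also ended the calls of Ano3 (adjusted p 0.0559) and Mal2 (0.0801). Muc15 was not tested when exon reads placed at 1 site were used, under a minimum of 10 reads for each library or on either log2(RPKM) scale, which left 0 of the 7 genes called. Leaving 1 library out gave 0 to 1. Over all genes, 1137 were called without a filter, 427 by DESeq2, and 16 to 478 with 1 library left out (268 without WT replicate 1, 478 without WT replicate 2, 31 without Nfat5-/- replicate 1 and 16 without Nfat5-/- replicate 2). Of the listed genes, 5 were called with library totals, 13 without a filter, 4 under the minimum of 10 reads, 5 with reads placed at 1 site, 6 by DESeq2, and 0 to 5 with 1 library left out, where a lone library is assumed to vary like the other genotype. The cause of these shifts was not tested. Mcam was called under every alternative except without Nfat5-/- replicate 2. Depth limits B3gnt5 and B3gnt7, whose SEs were 0.50 and 0.48.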

Other observations

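Further genes of cell surfaces were looked up after their values were seen, so their values are a description. Ly6/uPAR proteins are small lipid-anchored surface proteins, as mesothelin is lipid-anchored too. By symbol 33 such genes were listed, 15 were tested, 2 were called higher and 0 lower (0.943% of all genes tested were called higher), with a median log2 fold change of 0.42. Psca, prostate stem cell antigen, stood at 9.02 and 4.25 RPKM in WT against 25.5 and 25.3 RPKM in Nfat5-/- (log2 fold change 1.98, SE 0.31, edgeR adjusted p 0.0352). Ly6g6c stood at 1.10 and 0.462 RPKM in WT against 7.26 and 10.9 RPKM in Nfat5-/-, with an edgeR adjusted p of 0.0168. Lypd3, a urokinase receptor relative of upper epidermal layers, was at 53.4 and 53.6 against 76.5 and 90.1 RPKM and missed the threshold (edgeR adjusted p 0.0562). It was called under 6 of 14 alternatives, DESeq2 among them, with adjusted p-values from 1.19e-05 to 0.309.

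Uroplakins line the surface of the bladder. Of 6 such genes 3 were tested and 1 was called higher, a count to be read beside the same 0.943%. Upk3bl, a uroplakin-like gene, stood at 15.5 and 9.95 RPKM in WT against 30.9 and 36.6 RPKM in Nfat5-/- (log2 fold change 1.42, SE 0.21, edgeR adjusted p 0.0318). Upk1b stood at 0.102 and 0.0766 against 0.540 and 0.859 RPKM and missed the threshold (edgeR adjusted p 0.0601). With 3 and 3 reads in WT against 23 and 29 in Nfat5-/-, it passed the filter on low counts only through the Nfat5-/- libraries. Nothing is therefore read from its p-values. Upk1b was called without that filter (edgeR adjusted p 9.11e-05), with library totals (0.0467) and with reads placed at 1 site (0.0437), but not by DESeq2 (0.0678). Tmprss4, a membrane-bound serine protease, stood at 0.711 and 0.297 RPKM in WT against 3.25 and 4.15 RPKM in Nfat5-/- (log2 fold change 2.93, SE 0.39, edgeR adjusted p 0.0251).

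Ugcg, the enzyme that makes glucosylceramide, the first step of most glycolipids, stood at 3.73 and 4.15 RPKM in WT against 6.44 and 6.54 RPKM in Nfat5-/- (log2 fold change 0.71, SE 0.13), with an edgeR adjusted p of 0.0550. It was called under 8 of 14 alternatives, DESeq2 among them, with adjusted p-values from 2.59e-04 to 0.322.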
